A study of Mus musculus with 25 samples.

Results

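The genes described here encode the receptor subunits of interleukin-4 (IL-4) and interleukin-13 (IL-13) and the Janus kinases that these receptors use: Il4ra, Il13ra1, Il2rg, Jak1, Jak2, Jak3 and Tyk2. They were chosen by name for their place in the pathway and not by a measured value, although earlier results of these data were known. They are 7 of the 24411 gene symbols in the count tables. A filter on low counts left 10612 genes to test, among them all 7.

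IL-4 binds the IL-4 receptor α chain (Il4ra), which then pairs either with the common γ chain (Il2rg) in the type I receptor or with the IL-13 receptor α chain (Il13ra1) in the type II receptor. IL-13 binds Il13ra1, which pairs with Il4ra, so that only the type II receptor carries its signal. The receptor chains have no kinase of their own and rely on bound Janus kinases, Jak1 on Il4ra, Jak3 on Il2rg and Jak2 or Tyk2 on Il13ra1, which phosphorylate the transcription factor STAT6 and turn macrophages towards the M2 state. The same kinases serve other receptors as well: Jak1 and Jak2 act for interferon-γ (IFN-γ), and Jak1 and Tyk2 for the type I interferons.

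RNA-seq was performed on 25 samples in 9 conditions. Bone marrow-derived macrophages (BMDMs) of C57BL/6 mice had been differentiated with 25 ng/ml M-CSF over 4 days and gave 7 groups of 3 samples. Control BMDMs received no further agent and are labelled with 4 h of culture. M1 groups received IFN-γ at 100 U/ml and LPS at 100 ng/ml (IFN-LPS) and are labelled with 1, 4, 12 or 24 h. The paper calls these groups IFN-γ-primed and does not give the length of the priming. IFN-γ may therefore have acted for longer than the labelled time. M2 groups received IL-4 or IL-13 at 10 ng/ml for 12 h. RAW264.7, a virus-transformed mouse macrophage line grown in another medium without M-CSF, gave 2 control samples and 2 samples treated with 100 ng/ml LPS for 4 h. Every BMDM comparison with control used the same 3 control samples. Away from 4 h, the treatment and the time in culture cannot be told apart. Bulk counts also cannot tell fewer cells of a type from less RNA per cell.

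Between 2378639 and 3357300 sense reads per sample were assigned to genes, of which the ribosomal precursor Rn45s took 20.1% to 39.8%. The remaining 1502618 to 2532496 reads were used here. All 8 macrophage markers had counts in BMDMs, with a summed level of 18983 to 32977 CPM (read counts scaled to library size), while Mertk was at 0 in RAW264.7 cells. That sum was higher at 24 h of IFN-LPS (28770 to 32977 CPM) than in control (22756 to 24617 CPM). Cd3e, Cd3g, Cd3d and Cd8a, 4 of the 6 T cell markers, were at 0 in every sample. The other 2, Cd4 and Lck, had counts, and the list summed to 10.3 to 13.5 CPM in control, 11.5 to 20.4 CPM at 4 h and 2.53 to 2.99 CPM at 24 h of IFN-LPS. The neutrophil list summed to 13.1 to 22.5 CPM in control, 31.0 to 43.6 CPM at 1 h and 37.3 to 50.1 CPM at 4 h of IFN-LPS, with 6 of its 7 genes in the tables. All 4 fibroblast markers had counts in BMDMs, with a sum of 52.5 to 109 CPM, and were at 0 in RAW264.7 cells. The part of these marker differences in the results below was not tested. The antisense share of Rn45s reads was 0.0386% to 0.122% in the 12 samples of control and IFN-LPS 1, 4 and 12 h and 0.00603% to 0.0214% in the 9 samples of 24 h, IL-4 and IL-13, so that every comparison between these sets of samples (24 h, IL-4 and IL-13 against control, 24 h against 12 h, and IFN-LPS at 12 h against IL-4 and IL-13) also crosses this difference between libraries and cannot be told apart from it.

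On GRCm38, GENCODE M21 places Il4ra at chr7:125552120-125579474 (plus strand), Il13ra1 at chrX:36112110-36171259 (plus), Il2rg at chrX:101264378-101268255 (minus), Jak1 at chr4:101152367-101265282 (minus), Jak2 at chr19:29251828-29313080 (plus), Jak3 at chr8:71676296-71690575 (plus) and Tyk2 at chr9:21104068-21131243 (minus), all protein-coding. Reads were counted over exons on the sense strand. The exons of Il2rg overlap those of the readthrough gene Gm20489, and those of Jak3 overlap Insl3, both on the same strand. Insl3 is among the gene symbols of the count tables, and Gm20489 is not. Jak2 and Il2rg had the largest changes among the 7 genes, so the 250 bases before their RefSeq start sites (GRCm38.p6) are shown, read 5′ to 3′ on the strand of the gene, with GGGCGG or its complement CCGCCC, the core of the GC box, in capitals.
Jak2, chr19:29251553-29251802, plus strand: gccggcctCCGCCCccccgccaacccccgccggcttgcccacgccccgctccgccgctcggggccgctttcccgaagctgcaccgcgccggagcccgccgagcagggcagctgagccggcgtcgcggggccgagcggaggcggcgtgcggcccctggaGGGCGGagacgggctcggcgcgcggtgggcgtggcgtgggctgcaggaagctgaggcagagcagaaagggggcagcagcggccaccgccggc
Il2rg, chrX:101268256-101268505, minus strand: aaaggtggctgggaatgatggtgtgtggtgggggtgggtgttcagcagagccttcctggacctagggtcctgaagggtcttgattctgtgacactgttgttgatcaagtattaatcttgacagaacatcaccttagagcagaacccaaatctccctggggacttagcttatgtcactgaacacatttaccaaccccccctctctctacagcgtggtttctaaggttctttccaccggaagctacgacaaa
The Jak2 stretch is intergenic and the Il2rg stretch lies in an intron of Gm20489. The Jak2 stretch is 80.8% G and C, a content reached by 0.992% of 32851 mouse promoters of this length, whose median is 52.4%, while the Il2rg stretch has 49.2%. GGGCGG or CCGCCC stood in the stretches of 6 of the 7 genes, the exception being Il2rg, and in 32.7% of all promoters. TTCNNNGAA (in 7.02% of all promoters), TTCNNNNGAA (5.85%), GAAANNGAAA (2.98%), GGGANNTTCC (1.21%) and TATAAA (12.4%), searched on both strands as letter patterns of STAT, interferon-regulatory and NF-κB sites and of the TATA box, matched none of the 7, which says only that these letters are not in these windows.

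Levels below are CPM without Rn45s, scaled by TMM (trimmed mean of M-values) factors. Changes are log2-fold changes with standard errors (SE) from 1 edgeR quasi-likelihood fit of all samples, and FDR is its Benjamini-Hochberg adjusted p over 10612 genes, with a call at an FDR of at most 0.01. In control BMDMs, levels divided by exon length put Jak1 first with 26.0 ± 2.01 CPM per kb (SD, n = 3), followed by Il4ra with 17.9 ± 1.63, Jak2 with 12.0 ± 0.889, Il13ra1 with 11.1 ± 2.62, Tyk2 with 9.22 ± 0.544, Il2rg with 7.83 ± 1.03 and Jak3 with 0.841 ± 0.160 CPM per kb. Resting BMDMs thus carried transcripts of both receptor types, with Jak3 lowest of the 7. Across all 25 samples the highest CPM was 53.5 times the lowest for Jak2, 19.3 times for Il4ra, 14.6 times for Il2rg and 3.38 times for Jak1.

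**Figure D1:**
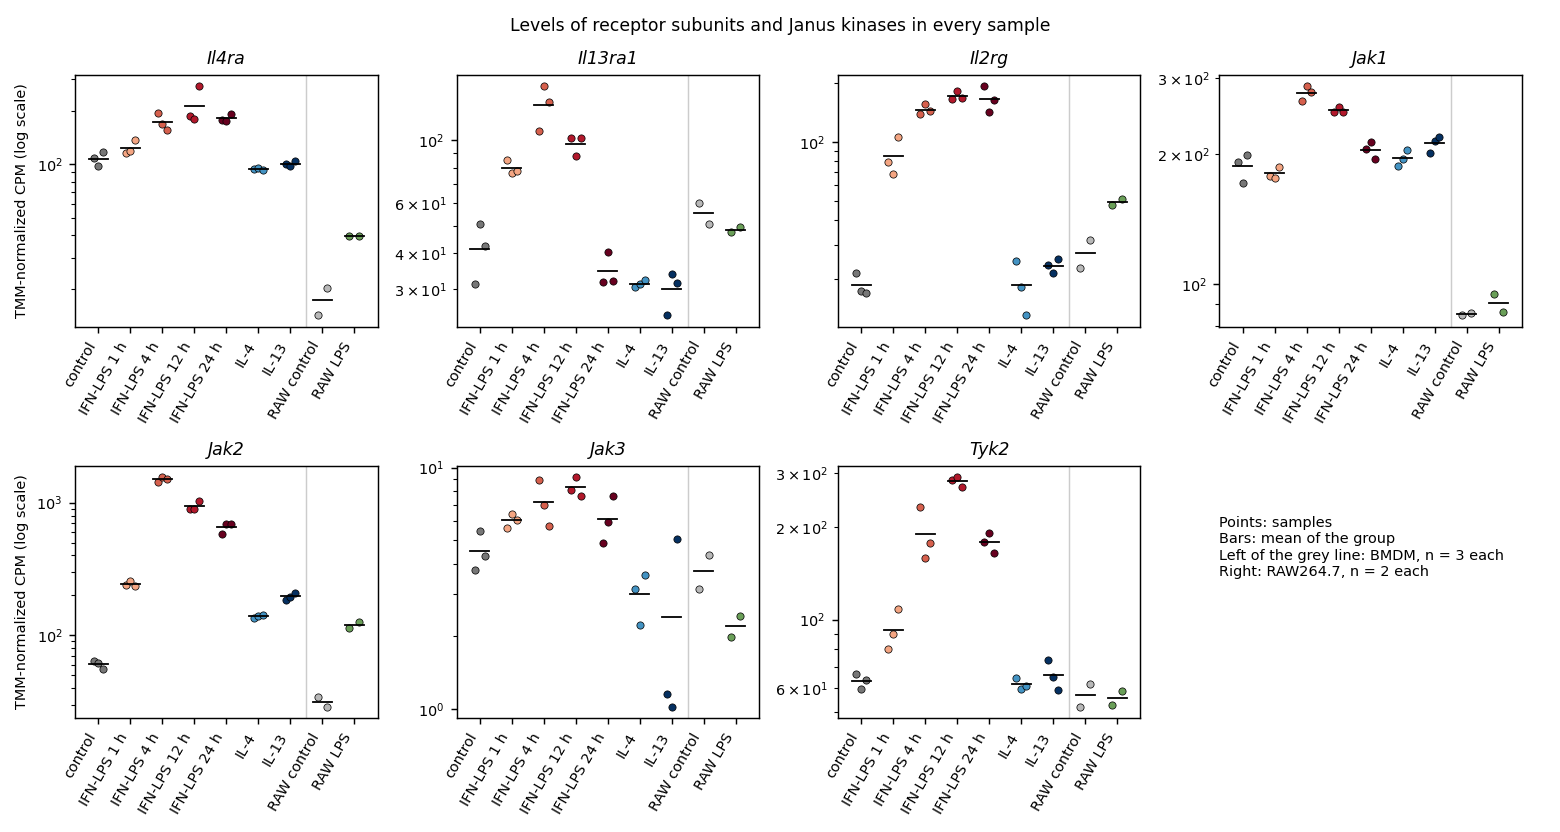
Level of each of the 7 genes in every sample (CPM without Rn45s, log axis) over the 9 conditions, with points for samples and bars for group means. Jak2 ran from 55.8 to 64.6 CPM in control BMDMs to 1431 to 1554 CPM at 4 h of IFN-LPS, whereas Jak1 stayed between 171 and 287 CPM in all BMDM samples.

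IFN-γ-primed LPS stimulation was followed by higher levels of most of these receptor and kinase transcripts. At 1 h, 4 of the 7 genes were upregulated, where 24.9% of all genes tested were called in either direction and 14.7% were called higher. At 4 h, 6 of the 7 were upregulated (48.5% of all genes called, 25.3% higher), and at 12 h again 6 (44.9% called, 23.2% higher). At 24 h, 4 were above control (42.8% called, 22.3% higher), all of these calls being higher. The median log2-fold change of the 7 was 0.55, 1.57, 1.23 and 0.75 after 1, 4, 12 and 24 h, beside medians of -0.016, -0.087, -0.025 and -0.0070 over all genes. With the fold cutoff of 1.5 on the log2 scale added, 2 of the 7 (Jak2 and Il2rg) were called at 1 h and again at 24 h, 4 at 4 h and 3 at 12 h, beside 7.04%, 14.7%, 21.9% and 17.0% of all genes. Without TMM factors the calls of Tyk2 at 1 h, of Il4ra and Jak1 at 4 h and of Jak1 at 12 h were lost. At 4 h Il4ra became 0.099 (FDR = 0.459) and Jak1 turned to -0.024 (FDR = 0.830). At 24 h Il13ra1 was then called lower (-0.48, FDR = 0.00856). Without these factors the medians of all genes shifted to -0.23, -0.66, -0.38 and -0.23, and the 4 h calls changed from 2685 higher of 5149 to 1517 higher of 6518.

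Il2rg, the chain that makes the receptor type I and that IL-2, IL-7, IL-15 and IL-21 also use, was among the lowest of the 7 at rest and rose at every time of IFN-LPS. Its level was 21.5, 17.4 and 17.2 CPM in the control samples, then 79.1, 68.3 and 105 CPM at 1 h, and 138, 155 and 143 CPM at 4 h. It was 164, 181 and 167 CPM at 12 h and 192, 142 and 162 CPM at 24 h. Every treated sample lay above every control sample, the 1 h samples lay below all later ones, and the 4, 12 and 24 h samples overlapped in part. The log2-fold change was 2.18 (SE 0.173, FDR = 5.56e-18) at 1 h, 2.96 (SE 0.167, FDR = 6.32e-26) at 4 h, 3.19 (SE 0.160, FDR = 9.09e-29) at 12 h and 3.14 (SE 0.157, FDR = 1.04e-28) at 24 h, by edgeR's quasi-likelihood test. From 12 to 24 h the change was -0.043 (95% confidence interval -0.27 to 0.19, FDR = 0.859), within the spread of the samples.

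Il13ra1, the chain that binds IL-13 and completes the type II receptor, was upregulated early and returned to the control range by 24 h. It was measured at 31.2, 50.6 and 42.4 CPM in control, 85.2, 76.7 and 78.1 CPM at 1 h, 107, 155 and 136 CPM at 4 h, 101, 87.9 and 101 CPM at 12 h, and 31.8, 40.4 and 32.1 CPM at 24 h. The samples of 1, 4 and 12 h stood above all control samples, and all 24 h samples fell inside the range of control. The log2-fold change against control was 0.95 (SE 0.146, FDR = 1.22e-07) at 1 h, 1.69 (SE 0.143, FDR = 2.91e-17) at 4 h and 1.23 (SE 0.144, FDR = 1.29e-11) at 12 h. At 24 h it was -0.26 (95% confidence interval -0.58 to 0.068, FDR = 0.185), and without TMM factors it was -0.48 and passed the threshold (FDR = 0.00856). From 12 to 24 h Il13ra1 decreased by 1.48 on the log2 scale (SE 0.144, FDR = 1.41e-13). Between 4 and 12 h it decreased by 0.46 (SE 0.129, FDR = 0.00254), a call that was lost without TMM factors (-0.23, FDR = 0.144), without the second 4 h sample (-0.33, FDR = 0.0627) and without the second 12 h sample (-0.40, FDR = 0.0186).

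Il4ra, the chain shared by both receptor types, changed by at most 0.99 on the log2 scale against control. Its levels were 108, 97.4 and 117 CPM in control and 116, 119 and 137 CPM at 1 h, ranges that overlap. They reached 194, 168 and 155 CPM at 4 h, 187, 179 and 275 CPM at 12 h and 176, 174 and 192 CPM at 24 h. All samples from 4 h on exceeded all control samples, and 1 of the 12 h samples lay well above the other two. The log2-fold change was 0.21 (SE 0.122, FDR = 0.186) at 1 h, 0.68 (SE 0.123, FDR = 2.05e-06) at 4 h, 0.99 (SE 0.117, FDR = 1.82e-11) at 12 h and 0.75 (SE 0.116, FDR = 6.20e-08) at 24 h. Without TMM factors the 4 h change of Il4ra was 0.099 (FDR = 0.459), and those of 12 h (0.63) and 24 h (0.53) stayed past the threshold.

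Because a ratio of counts within a library does not depend on its scaling, Il2rg was also set against Il13ra1. The ratio of Il2rg to Il13ra1 counts lay between 0.344 and 0.690 in the control samples. With IFN-LPS it lay between 0.891 and 1.35 after 1 h, between 1.00 and 1.29 after 4 h, between 1.62 and 2.06 after 12 h and between 3.53 and 6.03 after 24 h. Each IFN-LPS group lay fully above control. The mean log2 ratio was -1.13 ± 0.525 (SD, n = 3) in control and 2.25 ± 0.394 at 24 h (exact two-sided permutation test, p = 0.1, the smallest that 3 against 3 samples allow, and the same at 1, 4 and 12 h). With IL-4 it was -0.79 ± 0.496 (exact permutation p = 0.4) and with IL-13 -0.33 ± 0.309 (exact permutation p = 0.2), both with samples inside the control range. In RAW264.7 cells the ratio was 0.382 and 0.621 in control and 1.01 and 1.04 with LPS. These are ratios of read counts that are not divided by gene length, so they compare samples and not the 2 genes.

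**Figure D2:**
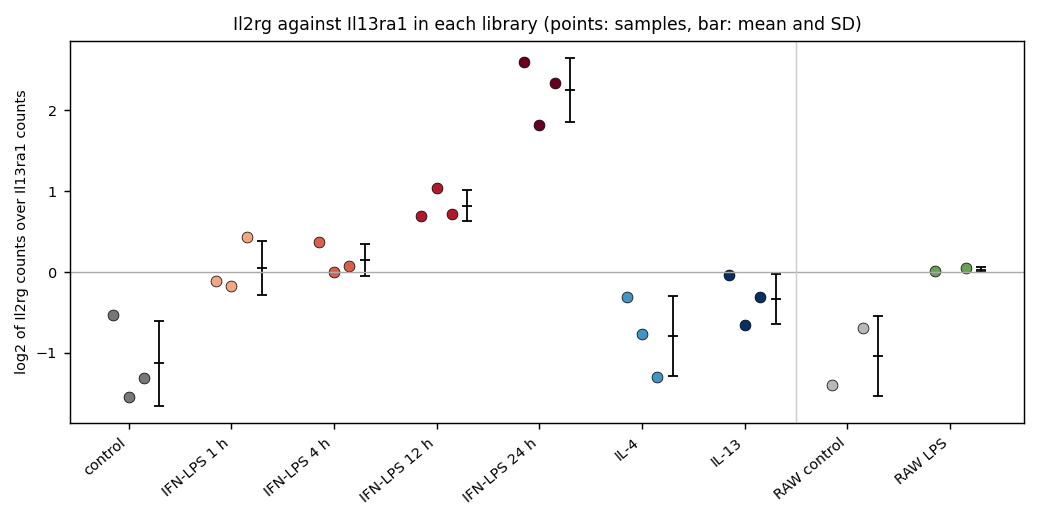
Log2 ratio of Il2rg to Il13ra1 counts in each sample by condition, with the group mean and SD. Control BMDMs had a mean of -1.13 and the 24 h IFN-LPS samples a mean of 2.25, and the 4 groups of IFN-LPS lay above all control samples.

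Jak2, which serves the IFN-γ receptor and the type II IL-4 receptor among others, showed the largest change of the 7. In control BMDMs it was at 64.6, 61.5 and 55.8 CPM. After IFN-LPS it was at 238, 257 and 237 CPM at 1 h, 1431, 1554 and 1506 CPM at 4 h, 892, 900 and 1037 CPM at 12 h, and 586, 686 and 689 CPM at 24 h. No group overlapped another, with the peak at 4 h. The log2-fold change against control was 2.01 (SE 0.108, FDR = 5.71e-27) at 1 h, 4.63 (SE 0.106, FDR = 2.30e-50) at 4 h, 3.96 (SE 0.105, FDR = 3.53e-46) at 12 h and 3.43 (SE 0.104, FDR = 3.02e-42) at 24 h. The change at 4 h, 24.7-fold, was the 258th highest of 10612 genes. Jak2 increased by 2.62 from 1 to 4 h (FDR = 3.18e-38), fell by 0.67 from 4 to 12 h (FDR = 2.56e-10) and fell by 0.53 from 12 to 24 h (FDR = 6.49e-07), all on the log2 scale.

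Tyk2, the kinase of the type I interferon receptor that also binds Il13ra1, peaked later. Its levels were 66.7, 59.3 and 63.8 CPM in control, 80.2, 89.6 and 108 CPM at 1 h, 232, 159 and 177 CPM at 4 h, 284, 290 and 270 CPM at 12 h, and 179, 191 and 165 CPM at 24 h. Every treated sample was above every control sample, and the 12 h samples were above those of all other times. The log2-fold change was 0.55 (SE 0.130, FDR = 0.000415) at 1 h, 1.57 (SE 0.125, FDR = 1.61e-18) at 4 h, 2.15 (SE 0.118, FDR = 8.65e-27) at 12 h and 1.49 (SE 0.120, FDR = 3.42e-18) at 24 h. The 1 h call of Tyk2 was lost without TMM factors (0.33, FDR = 0.0390) and without the third 1 h sample (0.42, FDR = 0.0221). Tyk2 rose from 4 to 12 h by 0.58 (FDR = 8.16e-06), where Jak2 fell, and fell by 0.66 from 12 to 24 h (FDR = 5.41e-07).

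Jak1, the kinase bound to Il4ra and to many other cytokine receptors, was the steadiest of the 7. It ran from 171 to 199 CPM in control and, with IFN-LPS, from 176 to 187 CPM (1 h), 264 to 287 CPM (4 h), 250 to 257 CPM (12 h) and 195 to 214 CPM (24 h). The 4 and 12 h samples lay above all other samples, while 1 h and 24 h overlapped with control. Its log2-fold change of 0.56 at 4 h (SE 0.0942, FDR = 4.26e-07) depended on the scaling and turned to -0.024 without TMM factors (FDR = 0.830), and that of 0.43 at 12 h (SE 0.0925, FDR = 5.95e-05) became 0.074 (FDR = 0.489). At 1 h it was -0.055 (95% confidence interval -0.24 to 0.13, FDR = 0.701) and at 24 h 0.12 (-0.061 to 0.31, FDR = 0.270).

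Jak3, the partner of Il2rg and best known from lymphocytes, was close to the detection limit with 2 to 18 counts per sample. Its mean was 4.50 ± 0.857 CPM in control and 6.05 ± 0.421, 7.21 ± 1.57, 8.30 ± 0.747 and 6.16 ± 1.36 CPM at 1, 4, 12 and 24 h of IFN-LPS (SD, n = 3). The log2-fold change of Jak3 at 12 h was 0.87 (95% confidence interval 0.12 to 1.62, FDR = 0.0451), which missed the threshold, and the other times gave FDR values of 0.170 to 0.450. The chain it binds, Il2rg, was 7.76-fold higher at 4 h than in control.

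**Figure D3:**
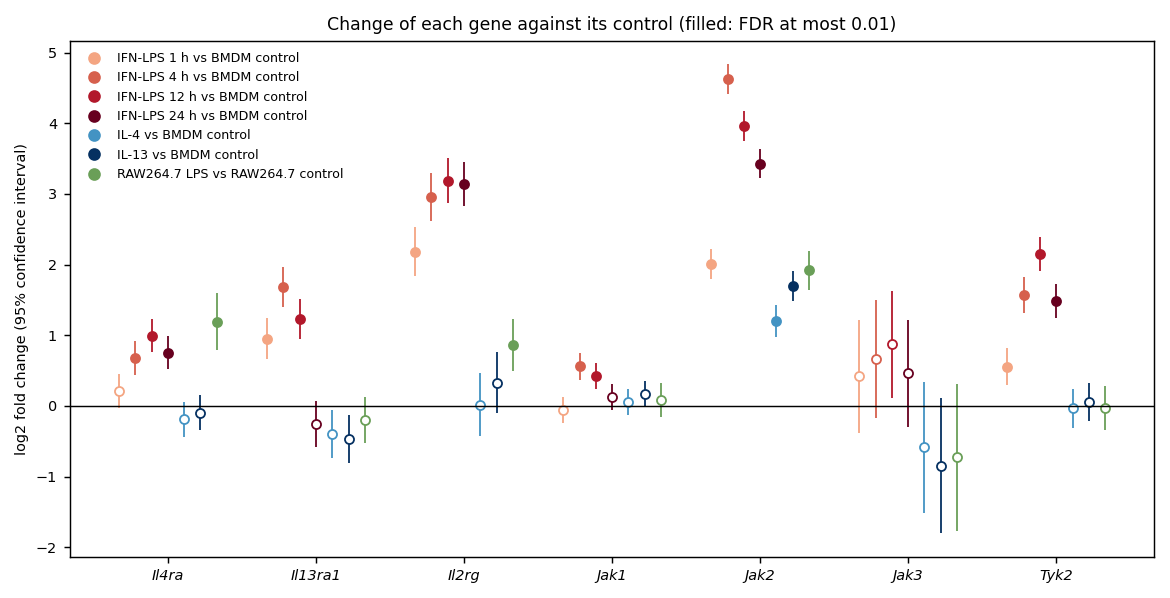
Log2-fold change of each of the 7 genes in the 7 treatment comparisons, with 95% confidence intervals and filled points for an FDR of at most 0.01 by edgeR's quasi-likelihood test. Jak2 is called in every comparison, from 1.21 with IL-4 to 4.63 at 4 h of IFN-LPS, and the filled Jak1 point at 4 h (0.56) is -0.024 without TMM factors.

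Between successive times the genes parted. From 1 to 4 h, 6 of the 7 were upregulated (36.3% of all genes called, 19.0% higher), all but Jak3, and 3 of these calls (Il4ra, Il13ra1 and Jak1) were lost without TMM factors. From 4 to 12 h Tyk2 rose and Jak2 and Il13ra1 fell (33.4% called). Without TMM factors Il4ra (0.53, FDR = 5.87e-05) and Il2rg (0.46, FDR = 0.00191) were also called higher. From 12 to 24 h Il13ra1, Tyk2, Jak2 and Jak1 fell (13.6% called, 9.36% lower), Jak1 by 0.30 with an FDR of 0.00980, a call lost in 20 of 25 fits that left out 1 sample. The medians of the 7 for these steps were 0.73, 0.20 and -0.41, beside -0.035, 0.012 and 0 over all genes.

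The sum of the 4 kinases shows what these changes did to their proportions. Per kb of exon, Jak1, Jak2, Jak3 and Tyk2 together were at 48.1 ± 2.21 CPM per kb (SD, n = 3) in control BMDMs and at 88.1 ± 2.85, 365 ± 8.28, 265 ± 14.5 and 185 ± 12.0 CPM per kb at 1, 4, 12 and 24 h of IFN-LPS. Jak1 held 54.0% ± 2.35 of this sum in control, Jak2 25.1% ± 2.12, Tyk2 19.2% ± 0.294 and Jak3 1.76% ± 0.422. At 4 h Jak2 held 81.6% ± 1.57 and Jak1 10.5% ± 0.1997, with Jak2 at 70.7% ± 2.18 at 12 h and 70.0% ± 2.31 at 24 h. The sample ranges of the Jak2 share did not overlap between control and any treated BMDM group. These shares are descriptions with no test, and they rest on the exon length of the annotation rather than on the isoforms in these cells.

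**Figure D4:**
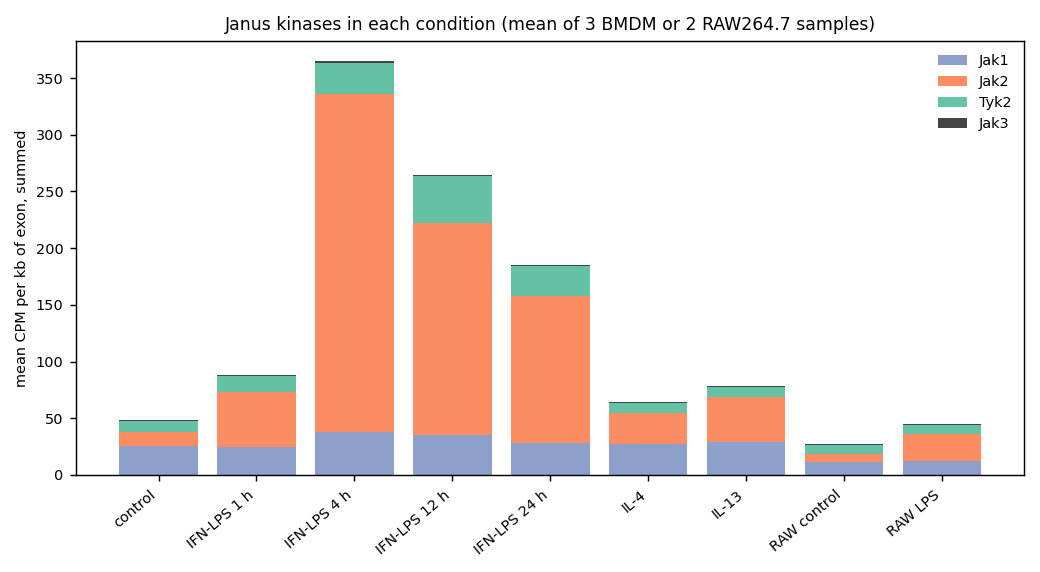
Mean summed level of the 4 Janus kinases per condition in CPM per kb of exon, stacked by gene. The total was 48.1 CPM per kb in control BMDMs and 365 CPM per kb at 4 h of IFN-LPS, where Jak2 made up 81.6% of it.

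After 12 h with IL-4 or IL-13, the ligands of these receptors, Jak2 was the one gene of the 7 that passed the test. It was measured at 136, 141 and 143 CPM with IL-4 and at 185, 196 and 209 CPM with IL-13, against 64.6, 61.5 and 55.8 CPM in control. The 3 groups did not overlap, with IL-13 highest. Because the control is labelled with 4 h, the cytokine, the time in culture and the difference between libraries given above cannot be told apart here. Jak2 was 2.31-fold higher with IL-4 (log2-fold change 1.21, SE 0.113, FDR = 7.61e-14) and 3.25-fold higher with IL-13 (1.70, SE 0.109, FDR = 1.18e-21) than in control, by edgeR's quasi-likelihood test. That made 1 of the 7 called with each cytokine, where 6.25% of all genes were called with IL-4 (3.78% higher) and 8.33% with IL-13 (4.98% higher). Jak2 also passed the fold cutoff of 0.7 on the log2 scale that the study used for these cytokines, as 3.37% and 4.75% of all genes did. Among 10612 genes the change of Jak2 ranked 202nd with IL-4 and 128th with IL-13.

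The chains of the receptors themselves were not called with either cytokine. Il13ra1 ran from 30.5 to 32.3 CPM with IL-4 and from 24.2 to 33.8 CPM with IL-13, against 31.2 to 50.6 CPM in control, with log2-fold changes of -0.40 (95% confidence interval -0.74 to -0.062, FDR = 0.131) and -0.46 (-0.80 to -0.12, FDR = 0.0591). Il4ra ran from 92.7 to 95.3 CPM and from 98.5 to 104 CPM, with changes of -0.19 (-0.44 to 0.060, FDR = 0.403) and -0.093 (-0.34 to 0.15, FDR = 0.7005). For Il2rg the changes were 0.019 (-0.43 to 0.47, FDR = 0.986) with IL-4 and 0.33 (-0.097 to 0.76, FDR = 0.353) with IL-13. Of the kinases, Jak1 gave 0.058 (-0.13 to 0.24) and 0.17 (-0.011 to 0.36), and Tyk2 gave -0.035 (-0.31 to 0.24) and 0.055 (-0.22 to 0.33), in the same order. Jak3, with 2 to 10 counts in these samples, gave -0.58 (-1.51 to 0.35) and -0.85 (-1.80 to 0.11). The median over the 7 genes was -0.035 with IL-4 and 0.055 with IL-13, beside 0 and -0.0054 over all genes.

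IL-13 and IL-4 were compared directly at their shared dose and time. Jak2 was 1.41-fold higher with IL-13 (log2 difference 0.49, SE 0.0988, 95% confidence interval 0.30 to 0.69, FDR = 0.00737), higher in 3 of 3 samples. It was 1 of 8 genes called in this comparison, 0.0754% of those tested. The call rested on all samples of both groups but the first of IL-13, since the FDR was 0.0790, 0.0635 and 0.0421 without replicate 1, 2 or 3 of IL-4 and 0.0344 and 0.109 without replicate 2 or 3 of IL-13. The size of the Jak2 difference moved only between 0.45 and 0.53 in these fits. For the other genes the difference was not called, with confidence intervals of -0.15 to 0.35 for Il4ra, -0.42 to 0.30 for Il13ra1, -0.12 to 0.74 for Il2rg, -0.069 to 0.30 for Jak1, -0.18 to 0.36 for Tyk2 and -1.32 to 0.79 for Jak3. Per kb of exon, Jak2 stood at 27.8 ± 0.710 CPM per kb with IL-4, beside 27.0 ± 1.14 CPM per kb of Jak1, and at 39.1 ± 2.38 with IL-13, beside 29.3 ± 1.28 of Jak1. Its share of the summed kinases was 43.2% ± 0.451 with IL-4 and 49.8% ± 1.19 with IL-13.

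At 12 h all 3 treatments can be compared at 1 time, without the 4 h control, although the antisense share of Rn45s reads was 0.0827% to 0.122% in the IFN-LPS samples and 0.00603% to 0.0214% in those of IL-4 and IL-13, whose part in these differences was not tested. Against IL-4, all 7 genes passed the test (41.0% of all genes called), and against IL-13, 6 of the 7 (41.0% called), each of them higher with IFN-LPS. Both comparisons use the same 3 IFN-LPS samples. Jak2 was 6.74-fold higher than with IL-4 (log2 difference 2.75, FDR = 6.41e-39) and 4.79-fold higher than with IL-13 (2.26, FDR = 1.17e-34). Il2rg differed by 3.17 and 2.86, Tyk2 by 2.18 and 2.09, Il13ra1 by 1.63 and 1.69 and Il4ra by 1.18 and 1.09 on the log2 scale, in the order IL-4 and IL-13, each called and none with overlapping samples. Jak1 differed by 0.37 from IL-4 (FDR = 0.000507), which became 0.024 without TMM factors (FDR = 0.834), and by 0.25 from IL-13 (FDR = 0.0168), which turned to -0.12 (FDR = 0.242). Jak3 differed by 1.45 from IL-4 (FDR = 0.00240), a call lost without the second IL-4 sample (1.29, FDR = 0.0173), without TMM factors (1.11, FDR = 0.020) and in DESeq2 (1.47, FDR = 0.0167). From IL-13 Jak3 differed by 1.72 (FDR = 0.000488), again lost without the second IL-13 sample (1.34, FDR = 0.0112). The medians of the 7 were 1.63 and 1.72, beside -0.042 and -0.041 over all genes.

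In RAW264.7 cells treated with LPS alone, 3 of the 7 genes were upregulated, where 18.5% of all genes were called and 8.90% were called higher. Jak2 rose from 34.1 and 29.1 CPM to 114 and 125 CPM (log2-fold change 1.92, SE 0.140, FDR = 1.49e-19, n = 2 each, edgeR's quasi-likelihood test). Il4ra rose from 14.3 and 20.3 CPM to 39.5 and 39.6 CPM (1.19, SE 0.204, FDR = 2.39e-06). Il2rg rose from 23.0 and 31.6 CPM to 47.9 and 51.1 CPM (0.86, SE 0.187, FDR = 0.000172), a call that was lost without the first control sample (0.65, FDR = 0.0312), where the 1 control sample left is assumed to vary like the other groups. The control and LPS samples of these 3 genes did not overlap. Il13ra1 was at 60.2 and 50.9 CPM in control and 47.5 and 49.3 CPM with LPS (-0.20, 95% confidence interval -0.52 to 0.13, FDR = 0.411). Jak1 gave 0.087 (-0.16 to 0.33), Tyk2 -0.028 (-0.34 to 0.28) and Jak3 -0.73 (-1.77 to 0.32). The median of the 7 was 0.087, beside -0.023 over all genes. The LPS change in the line differed from the IFN-LPS change of BMDMs at 4 h for 4 of the 7 genes, all 4 smaller in the line (25.0% of all genes called, 15.3% lower).

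At rest, the line differed from BMDMs most in Il4ra. Its level of 14.3 and 20.3 CPM was below the 97.4 to 117 CPM of control BMDMs by 2.63 on the log2 scale (SE 0.174, FDR = 1.51e-22). Jak1 (84.9 and 85.7 CPM) was lower by 1.14 (FDR = 6.09e-15) and Jak2 by 0.94 (FDR = 3.03e-08), so that 3 of the 7 were called lower, where 65.6% of all genes were called and 33.7% lower. Il13ra1 was 0.43 higher (FDR = 0.0140) and Il2rg 0.54 higher (FDR = 0.0198), both short of the threshold and past it without TMM factors (0.68, FDR = 0.000114, and 0.79, FDR = 0.000971). Il13ra1 was also called without the second BMDM control sample (0.59, FDR = 0.00264), and Il2rg without the first RAW264.7 control sample (0.76, FDR = 0.00601), again with 1 sample of the line left and its spread taken from the other groups. Per kb, Il13ra1 led the 7 in RAW264.7 control cells with 14.96 ± 1.78 CPM per kb (SD, n = 2) and Il4ra had 2.88 ± 0.717 CPM per kb, the reverse of their order in control BMDMs. The line and the primary cells also differ in origin and medium. The antisense share of Rn45s reads was 0.0199% and 0.0236% in RAW264.7 control samples and 0.0386% to 0.0543% in control BMDMs. The part of this difference between libraries was not tested.

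The other genes of the pathway moved in part with these 7. Of the 7 STATs, 6 were tested and 5 rose at 4 h of IFN-LPS (median 3.16, beside -0.087 over all genes), where 48.5% of all genes were called and 25.3% called higher. The 5 include Stat2 with a log2-fold change of 4.23, Stat5a with 3.98 and Stat3 with 2.33, transcription factors of the type I interferon, common γ chain and IL-6 families. Stat6, the factor of IL-4 and IL-13, named here after its values were seen, was at 250 ± 11.6 CPM at 4 h and 266 ± 9.87 CPM in control (-0.092, FDR = 0.410). With IL-4 and IL-13 Stat6 changed by 0.14 (FDR = 0.381) and 0.018 (FDR = 0.935).

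Among the 14 other subunits and ligands of the common γ chain and IL-13 systems, 4 passed the filter. Of these, 2 rose and 1 fell at 4 h of IFN-LPS, beside 48.5% of all genes called and 25.3% called higher. Il15ra, the chain that presents IL-15, changed by 6.86 and Il15, its ligand, by 5.50, while Il7r fell by 1.97, all log2-fold. Of 17 other receptors that signal through Janus kinases, 15 were tested, and at 4 h 7 rose and 2 fell (median 0.51), where 48.5% of all genes were called and 25.3% called higher. Ifnar2, a chain of the type I interferon receptor, increased by 1.45, Osmr, the oncostatin M receptor, by 1.43, and Il6ra, the IL-6 receptor, decreased by 2.44. With IL-4, 4 of these receptors rose and 1 fell (median 0.15), and with IL-13 5 rose and 1 fell (median 0.041), beside 6.25% and 8.33% of all genes called. Il6st, the gp130 chain shared by IL-6 family receptors and a further user of Jak1, Jak2 and Tyk2, increased by 0.74 with IL-4 and by 1.16 with IL-13, from 91.5 ± 4.64 CPM to 152 ± 11.03 and 205 ± 21.5 CPM, and fell by 0.82 at 4 h and by 1.73 at 12 h of IFN-LPS.

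All 18 inhibitors and phosphatases of the pathway were tested, with 9 higher and 2 lower at 4 h of IFN-LPS (median 0.49), again beside 48.5% of all genes called and 25.3% called higher. Socs3 increased by 9.83, Socs1 by 6.41 and Socs7 by 2.63 on the log2 scale, all of them members of the family of suppressors of cytokine signalling. Socs1 went from 1.44 ± 1.37 CPM in control to 128 ± 10.6 CPM at 4 h, to 11.7 ± 4.55 CPM with IL-4 (log2-fold change 2.99, FDR = 9.26e-07) and to 19.4 ± 1.32 CPM with IL-13 (3.70, FDR = 3.92e-11). With IL-4 2 inhibitors rose and with IL-13 4 did, with medians of -0.011 and -0.038, where 3.78% and 4.98% of all genes were called higher. Cish, a member of the same family and a known target of STAT5 that was at 0 counts in control, stood at 34.2 ± 1.02 CPM at 4 h of IFN-LPS, 4.25 ± 0.883 CPM with IL-4 and 13.6 ± 2.75 CPM with IL-13 and was higher with IL-13 than with IL-4 (log2 difference 1.64, FDR = 0.00737). Of 9 adaptors, 8 were tested, with 1 higher and 2 lower at 4 h (median -0.24, 48.5% of all genes called): Stam2 rose by 0.69, Sh2b1 fell by 0.89 and Sh2b2 fell by 0.78. Shc1 rose by 0.42 with IL-4 and by 0.41 with IL-13, the 1 adaptor called with each.

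As a check of the treatments, all 10 IFN-γ and LPS response genes listed were higher at 4, 12 and 24 h of IFN-LPS, beside 25.3%, 23.2% and 22.3% of all genes. Of 11 tested IL-4 and IL-13 response genes, 8 were higher with each of these cytokines, beside 3.78% and 4.98% of all genes. Genes of this list were also called with IFN-LPS. At 1 h, 5 of the 11 were higher and 1 lower, where 24.9% of all genes were called and 14.7% called higher. At 4 h, 4 were higher and 2 lower, where 48.5% of all genes were called and 25.3% called higher. Chil3, an M2 marker, stood at 717 CPM with IL-4 and 1387 CPM with IL-13, against 5.03 CPM in control.

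The time courses of the 7 genes over the 7 BMDM conditions were described by Pearson's r of the mean levels, which share libraries and the control. Between pairs of the 6 genes above 10 CPM it ran from 0.574 for Il2rg and Jak1 to 0.990 for Il4ra and Tyk2. Among 7758 genes above that level, the closest to Jak2 were Ran, Rbm26 and Eif2b2 (r = 0.992, 0.992 and 0.990), to Il2rg Psmb9, Vars and Isg15 (0.996, 0.996 and 0.995) and to Il13ra1 Ginm1, Gcnt2 and Lnpep (0.985, 0.977 and 0.976). For Il4ra they were Lrrk2, Rbpj and Scarf1 (0.995, 0.994 and 0.994), for Tyk2 Nsmaf, Psmd11 and Procr (0.994, 0.994 and 0.993), and for Jak1 Polr2m, Tmem259 and Strn3 (0.984, 0.983 and 0.980). With 7 points many genes reach such values, and a rank correlation or all 9 conditions kept fewer than 2 of the 3 nearest genes in 10 of 12 cases. The value of r also leaves out the size of a change. From control to 4 h of IFN-LPS, Jak2 went from 60.6 to 1497 CPM. Ran went from 125 to 274, Rbm26 from 26.8 to 43.3 and Eif2b2 from 30.4 to 50.3 CPM. Isg15 went from 1.79 to 1500 CPM, where Il2rg went from 18.7 to 145 CPM.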

How the data were processed

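Transcriptomes of 21 BMDM and 4 RAW264.7 samples were measured by directional RNA-seq after depletion of ribosomal RNA. Per the paper's methods and the submitters' processing notes, the authors trimmed reads with Trimmomatic 0.33 and aligned them to mm10 with STAR 2.5.1, whose deposited tables hold raw read counts per gene, unstranded and for each strand. The annotation release is not given in the sources used here. The sense-strand counts were used. Summary lines that name no gene (76.6% to 80.2% of reads) and Rn45s were left out before library sizes and TMM factors were computed. The 7 genes, the gene lists and the tests were chosen with earlier results of these data known.

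Genes kept by filterByExpr (10612 of 24411) were fitted in edgeR 4.0.16 (R 4.3.3) with a mean for each of the 9 groups over all 25 samples, by the robust quasi-likelihood test, two-sided, with Benjamini-Hochberg adjustment and a threshold of 0.01. A standard error is the log2-fold change divided by the square root of F. Ratios were tested by exact permutation in SciPy 1.17.1 (Python 3.11.15), and figures were drawn with matplotlib 3.10.9. Exon lengths and positions came from GENCODE M21 and promoters from RefSeq (GRCm38.p6). Per the rule for named genes, all 7 were described in every comparison, and of each pathway list at most 4 genes, those with the largest called change. A gene that this rule also named is not reported here. The paper calls the BMDM replicates biological, with independent RNA. The labels do not say that replicates were separate cultures, so p-values measure the spread between these samples, which may be technical. Replicate pairs (23) differed by more than sampling noise, with a chi-square per degree of freedom of 1.33 to 4.93. The fit was tested on simulated data. Alternatives were DESeq2 1.42.0, DESeq2 size factors in edgeR, no TMM factors, Rn45s kept, other filters, unstranded counts, a replicate block, separate fits by experiment, a threshold of 0.05 and leaving out each of 25 samples. Of the 7 genes Jak3 had the fewest counts, 2 to 18 per sample.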

Additional observations from a re-analysis of the deposited data

Results flagged for a closer look

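The change in RAW264.7 cells (LPS alone, 4 h) was tested against the change in BMDMs (IFN-γ and LPS, 4 h) as 1 contrast in the edgeR fit, and 4 of the 7 genes differed between the 2 cell types, where 25.0% of all genes tested were called. The log2 difference of the changes was -2.71 for Jak2 (SE 0.183, FDR = 2.88e-21), whose change was 1.92 in the line and 4.63 in BMDMs. It was -2.09 for Il2rg (SE 0.261, FDR = 3.72e-10), -1.88 for Il13ra1 (SE 0.217, FDR = 2.64e-11) and -1.60 for Tyk2 (SE 0.1998, FDR = 3.39e-10). Il13ra1 and Tyk2 were called higher in BMDMs and not in the line. For Il4ra the difference was 0.51 (95% confidence interval 0.036 to 0.99, FDR = 0.0920), for Jak3 -1.39 (-2.73 to -0.055, FDR = 0.105) and for Jak1 -0.47 (-0.78 to -0.16, FDR = 0.0124). Without TMM factors the difference of Il4ra passed the threshold (0.96, FDR = 0.00056), and that of Jak1 became -0.029 (FDR = 0.927). Jak1 passed the threshold without the third BMDM control sample (-0.53, FDR = 0.00804), the first 4 h sample (-0.52, FDR = 0.00749) or the third 12 h sample (-0.49, FDR = 0.00679). Cell type and agent changed together, so the absence of IFN-γ in the line and the cells themselves cannot be told apart.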

How the results depend on the processing

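Under 10 alternatives besides leaving out samples, 971 of 1003 log2-fold changes of the 7 genes kept direction and side of the threshold, 16 lost the call, 15 gained one and 1 reversed, Jak1 at 4 h of IFN-LPS (-0.024 without TMM factors). Leaving out TMM factors made 17 of these changes, among them the lost 4 h call of Il4ra (0.099, FDR = 0.459), and DESeq2 made 1. The number of the 7 genes called moved by more than 1.5 times in few cases: between 4 h and 1 h of IFN-LPS 3 were called without TMM factors (Il4ra, Il13ra1 and Jak1 lost), between IL-13 and IL-4 0 with at least 10 counts in every sample (edgeR, Jak2 FDR = 0.0131, while DESeq2 called 1) and 0 to 1 without 1 sample, and between RAW264.7 and BMDM control 5 without TMM factors or at a threshold of 0.05. The fall of Jak1 from 12 to 24 h (-0.30, FDR = 0.00980) was lost in 20 of 25 fits that left out 1 sample and under 5 other alternatives, with values of -0.34 to -0.18. Il4ra from 4 to 12 h (0.31, FDR = 0.0239) was called without the first (0.40, FDR = 0.00687) or second 12 h sample (0.41, FDR = 0.00543) and without TMM factors (0.53, FDR = 5.87e-05), as was Il2rg (0.46, FDR = 0.00191). Jak1 between IFN-LPS and IL-13 at 12 h was called without the first 4 h sample (0.27, FDR = 0.00948) and, not called, turned to -0.12 without TMM factors (FDR = 0.242). With counts not divided by exon length, the Jak2 share of the 4 kinases was 19.2% in control, 46.7%, 76.0%, 63.4% and 62.6% at 1, 4, 12 and 24 h, 35.0% with IL-4, 41.2% with IL-13, and 17.8% and 44.6% in RAW264.7 control and LPS cells. Jak3 had the fewest counts of the 7 genes, 2 to 18 per sample.

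Replicate numbers did not pair the samples: over 93 pairs with the same number the mean correlation of deviations was 0.0016, and 8 of 25 samples correlated best with their own number. With the replicate block, the number of genes called was the same in all 15 comparisons, for example 6 at 4 h of IFN-LPS and 1 between IL-13 and IL-4.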
